A study of Mus musculus with 96 samples.

Results

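The 9 genes of the MYC and MAX network were taken from the 37620 gene rows of the count tables by symbol, without use of their values: Myc, Mycn, Mycl (listed as Mycl1), Max, Mnt, Mxd3, Mxi1, Mga and Mlx. The set itself was chosen with earlier results of these data known. Gene positions below are in mm9. All 9 passed the filter on low counts in each of 7 RNA-seq comparisons of mouse embryonic stem cells (ESCs) grown in serum with LIF, with 2 libraries per group. Counts on genes were 75496499 to 81049618 per library in the knockout table, 38961268 to 52303725 and 19731613 to 21500931 in the Rybp and Wdr5 knockdown tables, 50312058 to 53779354 in rTRS, 18509543 to 21152439 in TF-AA, 14512857 to 16354044 in the phase table and 31465829 to 35897734 in the RYBP induction table. The labels do not say that replicates came from separate cultures, so p-values measure the spread between these samples, which may be technical.

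In the knockout, Rybp-floxed R7.15 ESCs (Rybp+/+) were set against the same line after 4 days of 5 µM 4-hydroxytamoxifen (Rybp-/-), so the agent and the deletion cannot be told apart. R1 ESCs with the empty vector shEV were the control for both shRybp and shWdr5. These 2 comparisons share their control libraries, listed with lower totals in the Wdr5 table, and are not independent. In rTRS, cells of a line labelled rTRS with a doxycycline-inducible Rybp_Stat3 integration served as control (NTC) or received doxycycline (DOX). Wild-type R1 ESCs were compared with TF-AA mutation, a term the sources used here do not spell out. For phase disruption, RYBPfl/fl Rosa26::CreERT2 cells of the R7.15 line all received 4-hydroxytamoxifen and overexpressed either WT RYBP or RYBP lacking 21 amino acids. J1 ESCs with Tet on.RYBP received vehicle or doxycycline. Peak lists also came from R1 ESCs with shEV or shStat3 (Stat3 knockdown) and from R1 cells with an inducible Rybp_Stat3 integration (Tet.Rybp.Stat3), without or with doxycycline. RYBP is a Polycomb protein, and WDR5 is a subunit of Trithorax methyltransferase complexes that also binds MYC.

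MYC, MYCN and MYCL are basic helix-loop-helix transcription factors that bind DNA as heterodimers with MAX, most strongly at the E-box CACGTG, and activate genes of growth and ribosome production. MNT and the MXD proteins, which include MXD3 and MXI1, compete for MAX and recruit SIN3 co-repressors. MGA, which also carries a T-box domain, pairs with MAX inside the Polycomb complex PRC1.6, where RYBP is a subunit, and silences germline genes in ESCs. MLX is the MAX-like partner of the glucose-sensing factors MLXIP and MLXIPL, and also pairs with MNT. In ESCs, Myc and Mycn support self-renewal, and LIF acts on Myc through STAT3.

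Promoter sequences of 8 members were matched in the RefSeq table of GRCm38.p6, each running from 250 bases before to 50 bases after a start site. Myc was not matched. Each sequence occurred once, without mismatch, in mm9, the build of the peak files, and mm9 positions are given. The letters CACGTG, which read the same on both strands, were found in the promoters of Max, Mlx and Mnt and in none of Mga, Mxd3, Mxi1, Mycl and Mycn, against 2349 (7.2%) of the 32851 promoters in the table. CACGTG holds a CpG (C followed by G). The member promoters had 14 to 49 CpG and 55% to 75% GC, against medians of 7 and 52.7% over all promoters. Promoters of like CpG content were not counted, so no enrichment is read from this. The letters are shown in capitals below because they are the sequence that MAX dimers bind. The Mga promoter, without these letters, is shown because its histone peaks had the largest falls of the 9 in Rybp-/- ESCs. The positions are chr12:78063186-78063485 (minus strand), chr11:100948354-100948653, chr11:74644176-74644475 and chr2:119722714-119723013 (plus strand).
Max: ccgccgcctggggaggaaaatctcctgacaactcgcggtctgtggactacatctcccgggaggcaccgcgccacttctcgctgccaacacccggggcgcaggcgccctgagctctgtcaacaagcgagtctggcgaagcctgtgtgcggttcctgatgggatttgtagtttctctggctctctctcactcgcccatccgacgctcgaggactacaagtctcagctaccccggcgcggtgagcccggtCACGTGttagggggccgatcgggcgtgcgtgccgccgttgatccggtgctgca
Mlx: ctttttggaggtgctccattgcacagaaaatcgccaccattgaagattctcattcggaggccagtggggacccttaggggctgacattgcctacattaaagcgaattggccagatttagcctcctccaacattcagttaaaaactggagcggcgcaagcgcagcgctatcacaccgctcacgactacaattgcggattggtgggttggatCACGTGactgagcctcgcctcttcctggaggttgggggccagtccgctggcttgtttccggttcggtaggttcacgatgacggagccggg
Mnt: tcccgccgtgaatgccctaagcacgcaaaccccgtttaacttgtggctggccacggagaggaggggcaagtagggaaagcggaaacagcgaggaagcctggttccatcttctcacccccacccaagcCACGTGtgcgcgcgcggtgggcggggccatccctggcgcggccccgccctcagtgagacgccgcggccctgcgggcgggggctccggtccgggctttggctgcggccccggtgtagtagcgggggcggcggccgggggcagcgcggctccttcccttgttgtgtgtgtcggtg
Mga: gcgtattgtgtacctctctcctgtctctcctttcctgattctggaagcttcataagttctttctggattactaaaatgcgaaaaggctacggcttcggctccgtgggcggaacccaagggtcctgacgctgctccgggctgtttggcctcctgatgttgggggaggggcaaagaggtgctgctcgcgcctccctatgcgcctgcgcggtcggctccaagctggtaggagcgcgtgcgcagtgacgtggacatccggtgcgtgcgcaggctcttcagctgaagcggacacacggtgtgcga
The first base of CACGTG lay 3 bases before the start site in Max, 40 in Mlx and 123 in Mnt. The match describes these letters only, and binding by MAX was not measured in the files used here.

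The perturbed genes were read first. Rybp was 110.4 and 110.2 CPM (counts scaled to a common library size) in Rybp+/+ and 24.8 and 25.0 in Rybp-/-, 85.7 and 86.4 in shEV and 35.8 and 36.6 in shRybp, and 135 and 145 with vehicle and 522 and 535 with doxycycline in the Tet on.RYBP line. Wdr5 was 349.9 and 343 CPM in shEV and 60.0 and 58.2 in shWdr5. These went with the labels. In rTRS, Rybp was 113 and 110.5 CPM in NTC and 102 and 99.8 in the libraries labelled DOX, so its transcript was not higher there, while Stat3 was 159 and 172 CPM in NTC and 191 and 188 in DOX. Directions given for rTRS DOX are therefore those of the libraries so labelled. Pairs of values joined by "against" below give the control libraries first. Total Rybp was 749 and 753 in WT.RYBP and 662 and 626 in phase disruption. All 8 pluripotency markers were tested in every table, with summed levels of 3354 CPM or more in every library.

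Across the 63 pairs of a member and a comparison, 38 passed an adjusted p of 0.05 in edgeR's quasi-likelihood test, 5 higher and 33 lower in the treated group. In the Rybp knockout 2 of 9 members were called higher and 5 lower, against 22.8% and 22.7% of all genes tested. In the Rybp knockdown 0 of 9 members were called higher and 6 lower (26.8% and 26.0% of all genes). In the Wdr5 knockdown 2 of 9 members were called higher and 5 lower (31.5% and 31.5%). In rTRS DOX 1 of 9 members were called higher and 6 lower (23.0% and 20.4%). In TF-AA mutation 0 of 9 members were called higher and 3 lower (14.4% and 16.1%). In phase disruption 0 of 9 members were called higher and 5 lower (16.1% and 17.0%), and on RYBP induction 0 of 9 members were called higher and 3 lower (3.63% and 2.39%). The counts in TF-AA and on RYBP induction depended on the setting. With the replicate number as a block, 1 member was called higher and 4 lower in TF-AA (18.2% and 20.0% of all genes), and Mxi1, Mnt and Mga were also called higher on RYBP induction, 6 members in all (4.79% and 3.32% of all genes called higher and lower). The number of members called in these 2 comparisons also moved when 1 library was left out, as did the number of all genes called. The median log2 fold change of the members ran from -0.37 in the Rybp knockdown to 0.015 on RYBP induction, while that of all genes stayed between -0.0074 and 0.018. Groups of 2 often separate: 48.1% of all genes on RYBP induction and 81.0% in the Wdr5 knockdown had groups that did not overlap (70.8% in the knockout, 75.6% in the Rybp knockdown, 71.3% in rTRS, 63.7% in TF-AA and 65.0% in phase disruption). In these bulk samples, fewer cells of a type and less RNA per cell cannot be told apart.

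**Figure D1:**
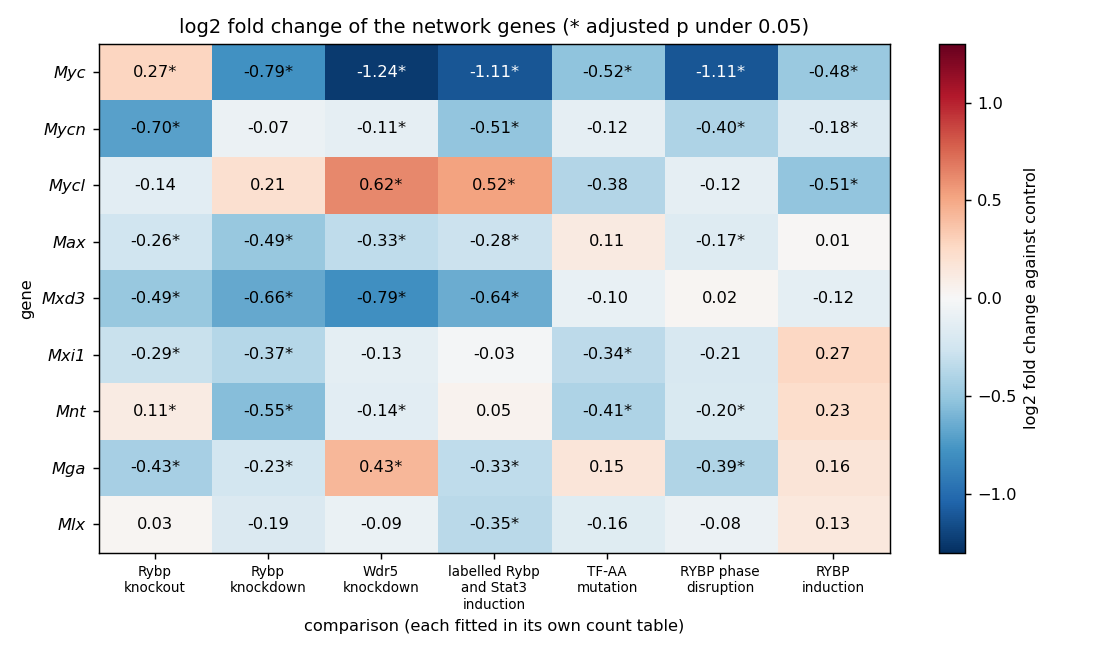
Log2 fold change (treated minus control) of the 9 members in the 7 comparisons, as a heat map with the value in each cell and a star at an adjusted p under 0.05 (edgeR). Most cells are blue (below 0), with the lowest value for Myc and the highest for Mycl, both in the Wdr5 knockdown. The column labelled Rybp and Stat3 induction is rTRS DOX against NTC.

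Myc (ENSMUSG00000022346, chr15:61816946-61821929), the founding member, passed the test in all 7 comparisons, lower in 6 and higher in the Rybp knockout. In the Wdr5 knockdown Myc was 67.9 and 74.2 CPM in shEV and 29.2 and 30.9 in shWdr5 (log2 fold change -1.24 ± 0.069 (SE), adjusted p = 2.91e-13). With shRybp it was 71.9 and 78.2 in shEV and 43.4 and 43.4 in shRybp (log2 fold change -0.79 ± 0.062 (SE), adjusted p = 5.16e-09). Both depleted libraries lay below both controls in each case. In rTRS, Myc was 28.0 and 25.6 CPM in NTC and 12.2 and 12.6 in DOX (log2 fold change -1.11 ± 0.11 (SE), adjusted p = 3.09e-06). In phase disruption it was 29.3 and 30.3 in WT.RYBP and 12.3 and 15.3 in the mutant (log2 fold change -1.11 ± 0.11 (SE), adjusted p = 1.16e-09). The fall was 2.16-fold in each, and the groups did not overlap. TF-AA mutation took Myc from 82.7 and 85.1 to 59.5 and 57.1 CPM (log2 fold change -0.52 ± 0.084 (SE), adjusted p = 3.57e-05). RYBP induction, a gain of Rybp transcript, took it from 59.8 and 57.0 to 41.3 and 42.6 CPM (log2 fold change -0.48 ± 0.083 (SE), adjusted p = 2.19e-04). Myc thus fell both where Rybp was knocked down and where it was induced. In the knockout Myc was 8.35 and 9.33 CPM in Rybp+/+ and 10.1 and 11.3 in Rybp-/- (log2 fold change 0.27 ± 0.10 (SE), adjusted p = 0.0231). This small rise was from the lowest control level of the 7 tables, and the call was lost under DESeq2, without the low-count filter, without Rybp+/+ replicate 1 (0.19) and without Rybp-/- replicate 2 (0.18).

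Mycn (ENSMUSG00000037169, chr12:12942902-12948720), known from embryonic and neural progenitor cells, fell in 5 comparisons and rose in none. In the knockout it was 225 and 231 CPM in Rybp+/+ and 141 and 139.7 in Rybp-/- (log2 fold change -0.70 ± 0.034 (SE), adjusted p = 1.30e-17). In rTRS it was 219.6 and 208 in NTC and 153 and 146 in DOX (log2 fold change -0.51 ± 0.064 (SE), adjusted p = 3.06e-05), and in phase disruption 152 and 153 in WT.RYBP and 117 and 114 in the mutant (log2 fold change -0.40 ± 0.053 (SE), adjusted p = 2.65e-07). The groups did not overlap in any of the 3. In the Rybp knockdown, by contrast, Mycn was 551 and 592 CPM in shEV and 552 and 533 in shRybp (log2 fold change -0.074 ± 0.045 (SE), adjusted p = 0.176), with overlapping groups, and a fall was called without shEV replicate 1 (-0.13, adjusted p = 0.00552). Smaller falls were called in the Wdr5 knockdown (522 and 561 against 486 and 514 CPM, log2 fold change -0.11 ± 0.046 (SE), adjusted p = 0.0338) and on RYBP induction (193 and 188 against 168 and 168 CPM, log2 fold change -0.18 ± 0.056 (SE), adjusted p = 0.0486). The former call was lost under DESeq2, edgeR's exact test, without shEV replicate 2 and without shWdr5 replicate 1, and the latter under RLE factors and without either DOX library. TF-AA mutation gave 234 and 230.2 against 213 and 214 CPM (log2 fold change -0.12 ± 0.075 (SE), adjusted p = 0.241).

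Mycl (ENSMUSG00000028654, chr4:122672895-122679728), the third MYC gene, moved in both directions. It rose in the Wdr5 knockdown from 16.3 and 17.2 to 25.7 and 25.8 CPM (log2 fold change 0.62 ± 0.088 (SE), adjusted p = 1.98e-06) and in rTRS DOX from 23.0 and 30.6 to 38.9 and 38.1 CPM (log2 fold change 0.52 ± 0.12 (SE), adjusted p = 0.00313). It fell on RYBP induction from 29.8 and 26.7 to 19.5 and 20.0 CPM (log2 fold change -0.51 ± 0.11 (SE), adjusted p = 0.00305). In each of the 3 the groups were apart. In rTRS the control libraries differed, and without NTC replicate 1 the value was 0.33. Mycl was 17.3 and 18.1 CPM in shEV and 20.7 and 20.3 in shRybp (log2 fold change 0.21 ± 0.088 (SE), adjusted p = 0.0557), which edgeR's exact test and scaling by library size only called. In the knockout it was 17.6 and 18.1 against 16.1 and 16.3 CPM (log2 fold change -0.14 ± 0.074 (SE), adjusted p = 0.129), in TF-AA 11.7 and 12.7 against 10.1 and 8.54 (log2 fold change -0.38 ± 0.15 (SE), adjusted p = 0.0557), and in phase disruption 9.38 and 9.73 against 9.44 and 8.14 (log2 fold change -0.12 ± 0.16 (SE), adjusted p = 0.603). None of these passed, but the TF-AA fall was called by edgeR's exact test, without the filter, with the replicate number as a block and without WT ESC replicate 1 (-0.45, adjusted p = 0.0278).

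**Figure D2:**
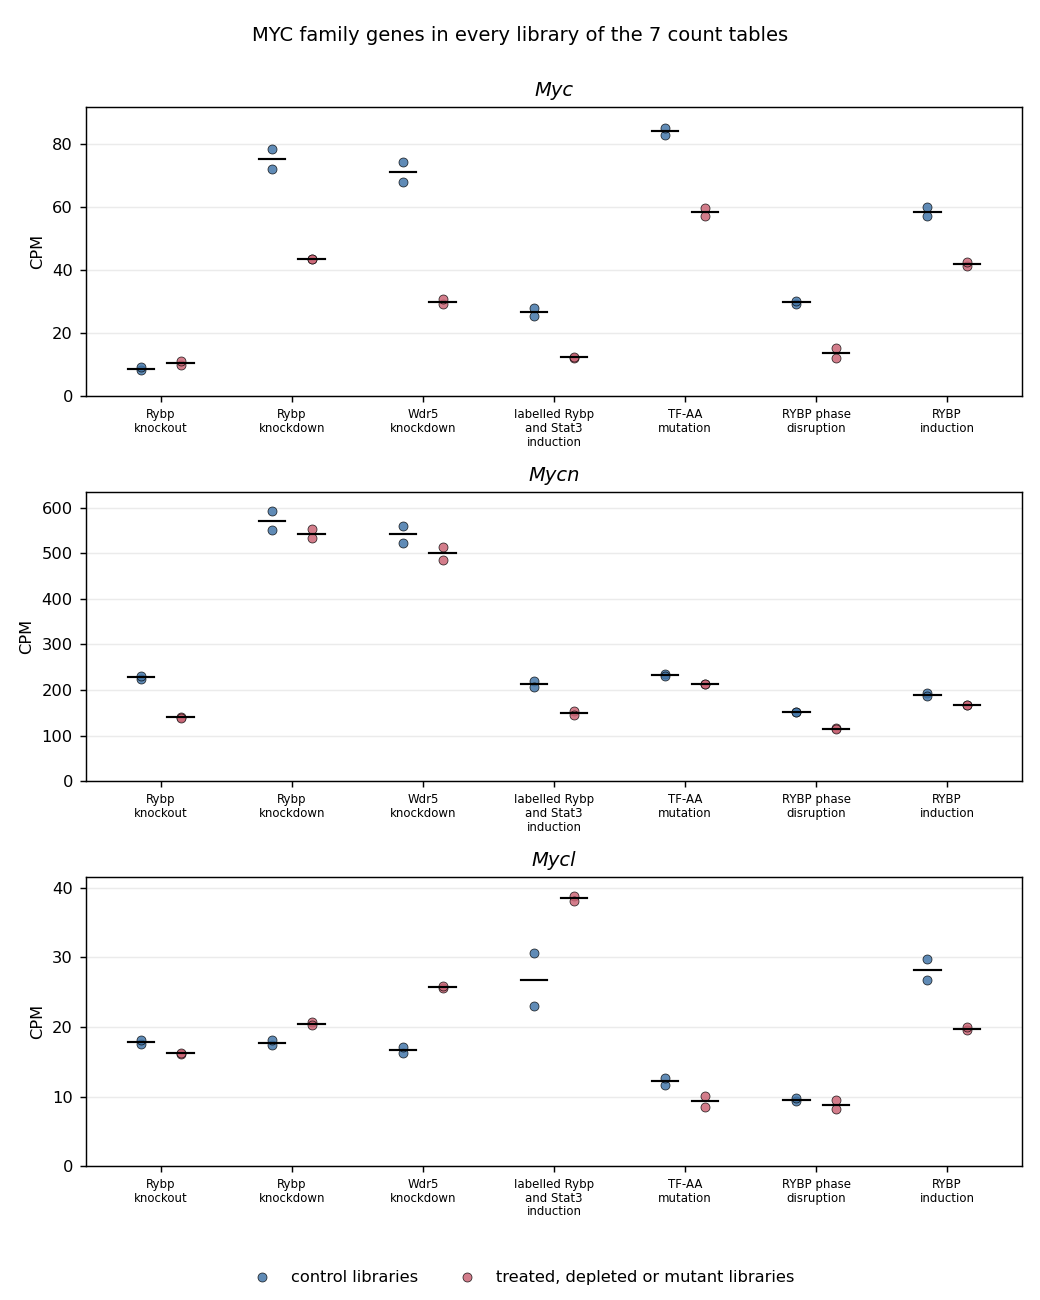
Level (CPM) of Myc, Mycn and Mycl in every library of the 7 comparisons, control in blue and treated in red, with lines at the group means. Treated Myc lies below control in 6 comparisons and above it in the Rybp knockout.

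Per kilobase of gene model (RPKM), Mycn and Max were the top pair in the control libraries of all 7 tables, Mycn between 46.2 and 174 RPKM and Max between 45.7 and 74.6. Their ranges overlapped only in the Tet on.RYBP line with vehicle. Myc varied in rank. It was last of 9 in Rybp+/+ R7.15 ESCs at 3.25 RPKM, overlapping Mxd3 at 3.33, and the third in wild-type R1 ESCs at 30.9 RPKM. In shEV, Myc at 27.6 RPKM overlapped Mnt at 25.3. Tables were normalized separately, so levels across them are given side by side only.

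Max (ENSMUSG00000059436, chr12:78038256-78063235), the obligate partner of all 3 MYC proteins, fell in 5 comparisons and rose in none. For the Rybp knockdown it was 137 and 139 CPM in shEV and 98.5 and 97.7 in shRybp (log2 fold change -0.49 ± 0.050 (SE), adjusted p = 1.50e-07), and in the Wdr5 knockdown 129 and 131 against 104 and 103 (log2 fold change -0.33 ± 0.051 (SE), adjusted p = 6.92e-06). In the knockout it was 122 and 119.02 in Rybp+/+ and 99.6 and 102 in Rybp-/- (log2 fold change -0.26 ± 0.038 (SE), adjusted p = 7.83e-07). The groups were apart in all 3. Smaller falls were called in rTRS DOX (95.6 and 87.7 against 75.8 and 75.1 CPM, log2 fold change -0.28 ± 0.071 (SE), adjusted p = 0.00639) and in phase disruption (111 and 121 against 101 and 105 CPM, log2 fold change -0.17 ± 0.059 (SE), adjusted p = 0.0251). The rTRS call was lost without NTC replicate 1, and the phase call under DESeq2, library size only, no filter and without WT.RYBP replicate 2 or mutant replicate 1. Max was 150.3 and 149 against 166 and 157 CPM in TF-AA (log2 fold change 0.11 ± 0.078 (SE), adjusted p = 0.299), and 122 and 115 against 118 and 120.4 on RYBP induction (log2 fold change 0.015 ± 0.063 (SE), adjusted p = 0.940).

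Mnt (ENSMUSG00000000282, chr11:74644422-74659227), a widely expressed MAX-bound repressor, fell in 4 comparisons and rose in 1. In the Rybp knockdown it was 109 and 125 CPM in shEV and 79.5 and 80.4 in shRybp (log2 fold change -0.55 ± 0.061 (SE), adjusted p = 4.30e-07). In TF-AA mutation it went from 60.7 and 51.6 to 43.9 and 40.8 CPM (log2 fold change -0.41 ± 0.10 (SE), adjusted p = 0.00247) and in phase disruption from 121 and 118 to 101 and 107 (log2 fold change -0.20 ± 0.057 (SE), adjusted p = 0.00606). The treated libraries were lower throughout, although the TF-AA call was lost without TF-AA replicate 2 and the phase call without WT.RYBP replicate 1. In the Wdr5 knockdown Mnt was 104 and 118 against 99.9 and 102 CPM (log2 fold change -0.14 ± 0.059 (SE), adjusted p = 0.0418), a call lost under DESeq2, without shEV replicate 2 and without either shWdr5 library. In the knockout Mnt was 151 and 150.4 in Rybp+/+ and 163 and 161 in Rybp-/- (log2 fold change 0.11 ± 0.035 (SE), adjusted p = 0.0111). That call was lost without Rybp-/- replicate 1 (log2 fold change 0.099) or replicate 2 (0.12). Values were 37.4 and 31.1 against 38.3 and 32.6 CPM in rTRS (log2 fold change 0.049 ± 0.11 (SE), adjusted p = 0.753) and 67.3 and 57.7 against 75.0 and 71.9 on RYBP induction (log2 fold change 0.23 ± 0.079 (SE), adjusted p = 0.0747). The last was called with the replicate block and without vehicle replicate 1 (0.35).

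Mxd3 (ENSMUSG00000021485, chr13:55426529-55431119), an MXD repressor known from dividing cells, fell in 4 comparisons. It was 14.3 and 14.0 CPM in shEV and 6.78 and 9.60 in shWdr5 (log2 fold change -0.79 ± 0.13 (SE), adjusted p = 2.12e-05), and 15.0 and 14.9 in shEV and 8.86 and 10.1 in shRybp (log2 fold change -0.66 ± 0.11 (SE), adjusted p = 6.55e-05). In rTRS it was 8.22 and 8.45 in NTC and 5.58 and 5.09 in DOX (log2 fold change -0.64 ± 0.15 (SE), adjusted p = 0.00398), and in the knockout 6.90 and 6.96 against 5.07 and 4.81 (log2 fold change -0.49 ± 0.12 (SE), adjusted p = 0.00111). All treated libraries of these 4 lay below their controls. Log2 fold changes in TF-AA, phase disruption and RYBP induction were -0.10, 0.021 and -0.12, none called. Mxd3 overlaps Prelid1 on the other strand, and the sources used here do not state whether counting used strand, so reads of the overlap cannot be told apart.

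Mxi1 (ENSMUSG00000025025, chr19:53384996-53450300), also an MXD repressor, fell in 3 comparisons. It was 30.5 and 33.4 CPM in shEV and 25.1 and 24.4 in shRybp (log2 fold change -0.37 ± 0.079 (SE), adjusted p = 7.30e-04), 27.5 and 26.8 in Rybp+/+ and 22.6 and 21.7 in Rybp-/- (log2 fold change -0.29 ± 0.064 (SE), adjusted p = 2.95e-04), and 23.7 and 25.4 against 20.3 and 18.6 in TF-AA (log2 fold change -0.34 ± 0.11 (SE), adjusted p = 0.0279). The groups were apart in all 3, but the TF-AA call was lost under DESeq2, library size only, without WT ESC replicate 2 and without either TF-AA library. The other log2 fold changes were -0.13 in the Wdr5 knockdown, -0.030 in rTRS, -0.21 in phase disruption and 0.27 on RYBP induction, the last called with the replicate block and without vehicle replicate 2 (0.31). Mxi1 overlaps Gm10197 on the other strand, with the same limit as for Mxd3.

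Mga (ENSMUSG00000033943, chr2:119722964-119795317), the MAX partner within PRC1.6, fell in 4 comparisons and rose in 1. In the knockout it was 534 and 506 CPM in Rybp+/+ and 382 and 391 in Rybp-/- (log2 fold change -0.43 ± 0.031 (SE), adjusted p = 2.94e-13), and in phase disruption 538 and 526 against 407 and 403 (log2 fold change -0.39 ± 0.042 (SE), adjusted p = 4.29e-09). For shRybp it was 204 and 207 in shEV and 174 and 175 in shRybp (log2 fold change -0.23 ± 0.046 (SE), adjusted p = 3.18e-04). In the Wdr5 knockdown Mga was 192 and 194 in shEV and 268 and 253 in shWdr5 (log2 fold change 0.43 ± 0.047 (SE), adjusted p = 3.42e-08). Depleted libraries were thus below their controls for Rybp and above them for Wdr5. The Rybp knockdown call was lost when libraries were scaled by size only (-0.076, adjusted p = 0.184). In rTRS, Mga was 175 and 219 in NTC and 150.5 and 164 in DOX (log2 fold change -0.33 ± 0.092 (SE), adjusted p = 0.0117), and without NTC replicate 2 the value was -0.15 (adjusted p = 0.207). It was 272 and 328 against 322 and 345 in TF-AA (log2 fold change 0.15 ± 0.085 (SE), adjusted p = 0.187) and 359.8 and 416 against 435 and 434 on RYBP induction (log2 fold change 0.16 ± 0.053 (SE), adjusted p = 0.0571). Neither passed, but other settings called a rise in both. In TF-AA these were the replicate block (adjusted p = 0.0416) and the fit without WT ESC replicate 2 (0.28, adjusted p = 8.11e-04). On RYBP induction they were the block (adjusted p = 0.011), no low-count filter (adjusted p = 0.0214) and the fit without vehicle replicate 2 (0.27, adjusted p = 1.06e-13).

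Mlx (ENSMUSG00000017801, chr11:100948591-100953521), the MAX-like partner of MLXIP and MLXIPL, fell in rTRS DOX alone among the 7 tests, from 34.8 and 35.4 to 25.6 and 29.4 CPM (log2 fold change -0.35 ± 0.094 (SE), adjusted p = 0.00898), and that call was lost without DOX replicate 1. Its other log2 fold changes lay between -0.19 in the Rybp knockdown and 0.13 on RYBP induction. The former was called without shEV replicate 2 (-0.28). Mlx overlaps Psmc3ip on the other strand.

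**Figure D3:**
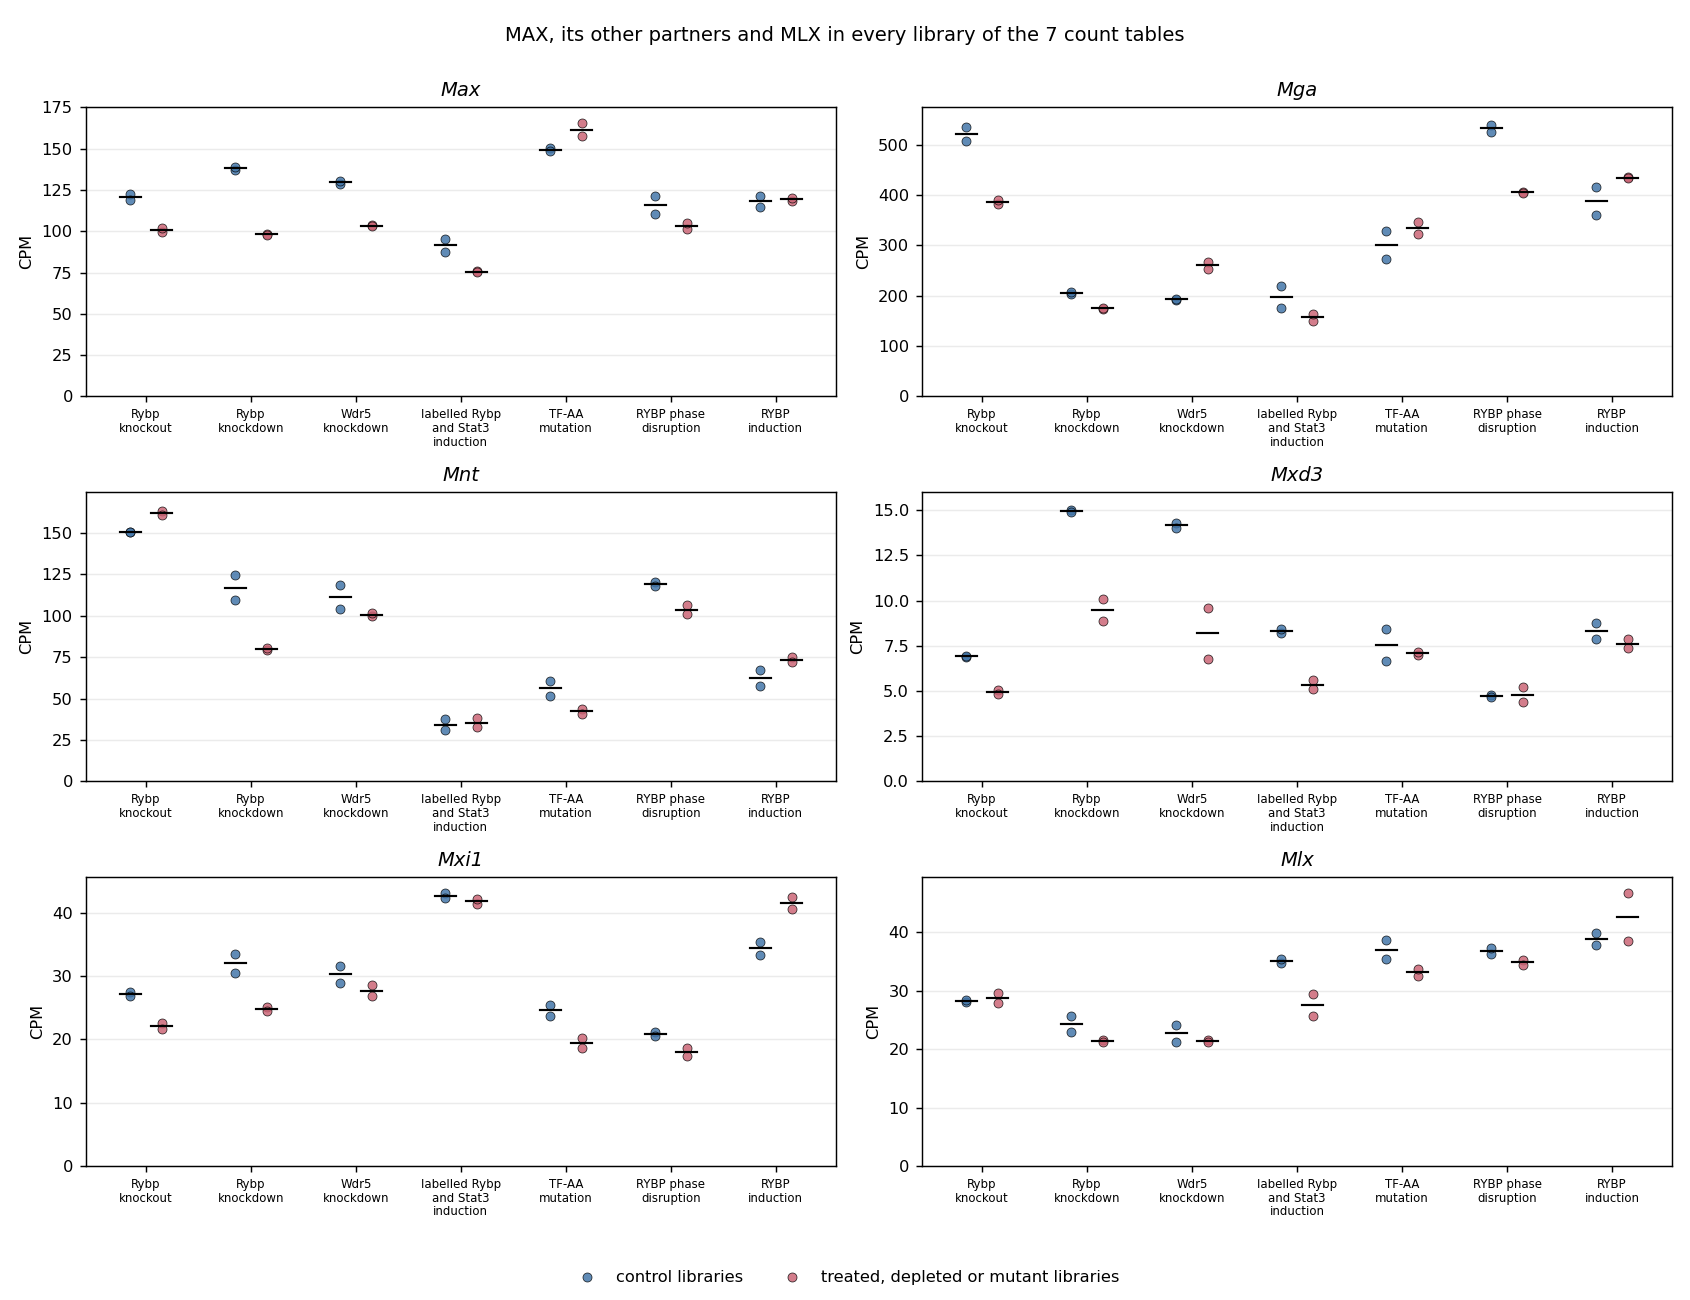
Level (CPM) of Max, Mnt, Mxd3, Mxi1, Mga and Mlx in every library of the 7 comparisons, control in blue and treated in red, with lines at the group means. Mga lies lower in Rybp-/- and phase disruption and higher in shWdr5.

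Markers of other cell types moved with some of these comparisons. Of all genes tested, 22.8% were called higher and 22.7% lower in the knockout, and 26.8% and 26.0% in the Rybp knockdown. The shares were 31.5% and 31.5% in the Wdr5 knockdown, 23.0% and 20.4% in rTRS, and 14.4% and 16.1% in TF-AA. In phase disruption they were 16.1% and 17.0%, and on RYBP induction 3.63% and 2.39%. Fibroblast markers summed to 56.2 to 56.8 CPM in the control libraries and 113 to 119.31 CPM in the treated ones of the knockout, where 5 of 6 rose, and to 421 to 428 CPM in the control libraries and 341 to 364 CPM in the treated ones of phase disruption, where 3 of 6 fell. They summed to 18.6 to 18.8 CPM in the control libraries and 30.7 to 31.9 CPM in the treated ones of the Rybp knockdown and 11.0 to 11.7 CPM in the control libraries and 24.0 to 24.7 CPM in the treated ones of TF-AA, with 3 of 3 tested higher in each and 3 of 6 under 0.1 CPM. Sums were 18.0 to 18.3 CPM in the control libraries and 15.3 to 15.7 CPM in the treated ones of the Wdr5 knockdown, 22.5 to 24.2 CPM in the control libraries and 21.6 to 27.5 CPM in the treated ones of rTRS and 7.70 to 8.69 CPM in the control libraries and 5.77 to 7.74 CPM in the treated ones of RYBP induction. Called markers went opposite ways within the sums of the Wdr5 knockdown and rTRS, with 1 higher and 1 lower of 3 tested in each. Col1a1 rose in both (log2 fold change 0.91 in each), while Thy1, which is not restricted to fibroblasts, fell (-1.91 in the Wdr5 knockdown and -0.72 in rTRS). On RYBP induction neither of 2 tested passed. In rTRS DOX, 6 of 8 pluripotency markers fell and 0 rose. Calls of these 8 were 6 higher and 1 lower in the knockout, 3 and 4 in the Rybp knockdown, and 2 and 5 in the Wdr5 knockdown. They were 3 and 1 in TF-AA, 1 and 2 in phase disruption, and 1 and 0 on RYBP induction. Summed mesoderm markers went from 4.21 to 5.42 CPM in NTC to 36.5 to 39.4 in DOX, with 2 of 5 higher and 0 lower. Their sum was also higher in the treated libraries of the other comparisons, as with shRybp (4.07 to 4.27 against 13.2 to 14.2 CPM, 1 of 5 higher). Of 5 trophectoderm markers, 4 rose and 0 fell in the knockout (summed 101 to 102 against 115 to 118.96 CPM). Of 5 primitive endoderm markers, 4 rose and 1 fell with shRybp (summed 12.8 to 15.5 against 21.0 to 21.7 CPM). Neural markers had 1 higher and 3 lower of 4 tested in rTRS DOX (summed 144 to 157 against 78.8 to 85.9 CPM). The part of these markers in the members' values was not tested.

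The same loci were read in peak lists of Rybp+/+ and Rybp-/- ESCs, given as 1 list per genotype and mark for 2 replicates that the methods describe as merged, so that no replicate error exists and no test was made. H3K4me3 marks active promoters, and H3K27ac marks active promoters and enhancers. Within 2500 bp of a start site, all 9 members held an H3K4me3 peak in both genotypes (67.4% and 67.5% of 22372 protein-coding genes) and an H3K27ac peak in both (51.0% and 54.1%). A WDR5 peak was present at 9 in Rybp+/+ and 8 in Rybp-/- (46.4% and 48.8%). Between genotypes, the strongest promoter peak was lower in Rybp-/- at 6 of 9 members for H3K4me3, 7 of 9 for H3K27ac and 4 of 8 for WDR5, against 44.7%, 61.2% and 43.7% of genes with a peak in both. Over peaks that cover a start site, a choice made after seeing the data, the counts were 6 of 9, 6 of 7 and 5 of 8 (44.2%, 61.9% and 42.6% of genes).

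Mga had the largest fall of the 9 in both histone marks. Its fold enrichment over background in Rybp+/+ and Rybp-/- was 27.2 and 10.5 for H3K4me3, 34.0 and 12.8 for H3K27ac, and 6.34 and 3.69 for WDR5. The ratio stood at percentile 0.0970 of 14945 genes for H3K4me3, 0.548 of 11220 for H3K27ac and 4.15 of 9859 for WDR5, where low percentiles are the largest falls. In Rybp+/+ these peaks lay at chr2:119722101-119725919, chr2:119721895-119725555 and chr2:119722720-119723638, overlapping the promoter printed above. Mga transcript fell in the same genotype. Mlx followed, with 44.7 and 23.0 for H3K4me3, 8.61 and 4.03 for H3K27ac, and its WDR5 peak at chr11:100948468-100949117 (fold enrichment 4.33) was listed in Rybp+/+ only. Its transcript did not pass the test there (log2 fold change 0.025 ± 0.061 (SE), adjusted p = 0.777).

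At Mycn, fold enrichment in Rybp+/+ and Rybp-/- was 37.0 and 50.3 for H3K4me3, 26.1 and 15.1 for H3K27ac, and WDR5 peaks in its promoter window numbered 6 (2.61 kb) and 1 (0.837 kb), with the strongest at 5.05 and 5.29. At Myc it was 36.3 and 23.8 for H3K4me3, 4.43 and 3.45 for H3K27ac, and 3.20 and 3.47 for WDR5. Its H3K27ac values come from peaks at different positions, chr15:61816441-61816943 in Rybp+/+ and chr15:61817274-61817584 in Rybp-/-. H3K27ac peaks in the Myc promoter window numbered 1 (0.503 kb) in Rybp+/+ and 3 (0.812 kb) in Rybp-/-. Only Rybp-/- had one over a start site (2.34). H3K4me3 thus went lower at Myc, whose transcript was called higher, and higher at Mycn, whose transcript fell. At Mycl fold enrichment was 61.6 and 45.8 for H3K4me3, 6.92 and 5.20 for H3K27ac, at Max 60.6 and 65.1 for H3K4me3, 21.3 and 20.1 for H3K27ac, and at Mnt 49.2 and 42.7 for H3K4me3, 26.0 and 27.7 for H3K27ac. Of these 3, WDR5 was higher in Rybp-/- at Max (9.74 and 13.3) and lower at Mnt (8.28 and 6.99). Mycl had WDR5 peaks going both ways. The peak over its start sites was lower in Rybp-/- (7.05 and 4.29), and the strongest in the window, 2454 and 2414 bp from the nearest start site, was higher (11.1 and 13.6). Mxd3 had 42.6 and 24.2 for H3K4me3, 27.9 and 21.2 for H3K27ac, with WDR5 at 7.73 and 7.60. Mxi1 had 43.3 and 58.9 for H3K4me3, 7.29 and 7.55 for H3K27ac, with WDR5 at 8.88 and 6.19.

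**Figure D4:**
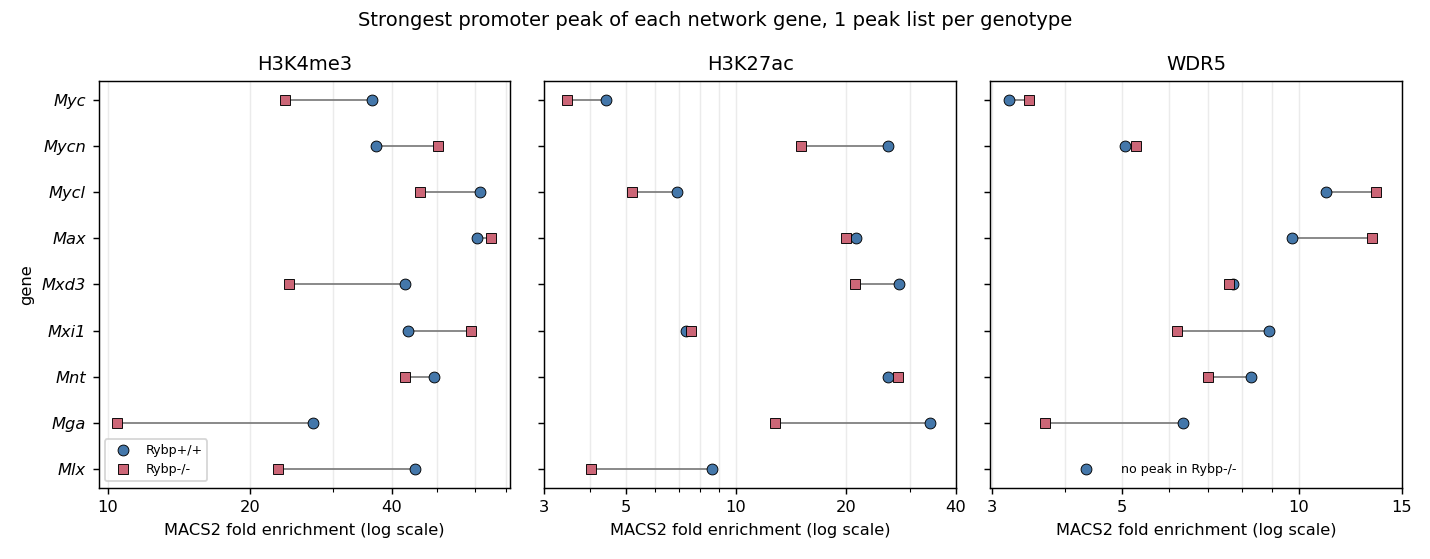
Fold enrichment (log axis) of the strongest promoter peak of H3K4me3, H3K27ac and WDR5 at the 9 members in Rybp+/+ and Rybp-/- ESCs, from 1 peak list per genotype and mark. Mga, Mlx and Mxd3 drop in all 3 marks, Mxd3 only from 7.73 to 7.60 for WDR5 and Mlx having no WDR5 peak listed in Rybp-/-.

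STAT3, the transcription factor that LIF activates, had promoter peaks at Mnt and Mycl in both Rybp+/+ and Rybp-/- ESCs, 2 of 9 members (7.55% and 6.33% of genes). These 2 lists and the RING1B lists of shEV and shStat3 ESCs each come from 1 library, without a replicate. The Mycl peak lay at chr4:122673159-122673459 in Rybp+/+ and the Mnt peak at chr11:74651873-74652309, near an internal annotated start site. In Tet.Rybp.Stat3 cells, STAT3 peaks were listed at 1 member without doxycycline (8.85% of genes) and at 9 with it (56.9%). At a −log10 q of at least 10, STAT3 peaks remained at 1 member in Rybp+/+, 1 in Rybp-/-, 0 without doxycycline and 8 with it. The shares of genes at that cut were 0.398%, 0.299%, 0.371% and 41.5%. RING1B, the Polycomb ubiquitin ligase, had promoter peaks at all 9 in shEV and shStat3 ESCs (45.4% and 41.1% of genes) and in Tet.Rybp.Stat3 cells without and with doxycycline (54.2% and 41.5%). At a −log10 q of at least 10, RING1B peaks remained at 3 members in shEV, 4 in shStat3, 6 without doxycycline and 5 with it (19.4%, 20.0%, 30.6% and 22.9% of genes). Between shEV and shStat3 the strongest RING1B promoter peak was lower at 5 of 9 members and higher at 4 (48.8% and 51.2% of genes with a peak in both). Over peaks that cover a start site it was lower at 5 of the 5 members with one in both lists (49.2% of genes). Mycn, Mxd3, Mxi1 and Mnt, the 4 that were higher, had no such peak in one of the lists. Fold enrichment of the strongest peak was lower in shStat3 at Mga (9.98 and 7.30), Myc (7.40 and 5.81), Mycl (8.21 and 7.26), Mlx (5.22 and 4.01) and Max (3.17 and 3.02). It was higher at Mxi1 (5.52 and 10.6), Mnt (3.83 and 8.20), Mycn (4.78 and 5.16) and Mxd3 (3.72 and 4.21). With doxycycline it was lower at all 9 (87.8% of genes), as at Mxi1 (38.7 without and 26.3 with doxycycline) and Mycl (21.4 and 11.7).

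Growth genes that MYC activates were described from a list of 28, all tested in each table. This list and the gene lists below were chosen with earlier results of these data known. In the Rybp knockdown 2 higher and 25 lower were called (median log2 fold change -0.34), in rTRS DOX 2 higher and 21 lower (-0.36) and in phase disruption 1 higher and 21 lower (-0.20). Medians of all genes were 0.018, 0.0036 and 0.0047, and 26.0%, 20.4% and 17.0% of all genes were called lower. Myc fell in each of these 3. It also fell in the Wdr5 knockdown, with 5 higher and 13 lower (-0.090), against 31.5% and 31.5% of all genes, in TF-AA, with 2 higher and 4 lower (0.0014), against 14.4% and 16.1%, and on RYBP induction, with 1 higher and 1 lower (0.024), against 3.63% and 2.39%. In the knockout 9 higher and 8 lower were called (0.012), against 22.8% and 22.7% of all genes. Single libraries moved some of these counts, as in the knockout without Rybp-/- replicate 2 and the Wdr5 knockdown without shEV replicate 1. In TF-AA the count went down or up with the library left out, while the median stayed between -0.033 and 0.044. With the replicate number as a block, 4 higher and 5 lower were called in TF-AA (18.2% and 20.0% of all genes). On RYBP induction 5 higher and 3 lower were called without vehicle replicate 1, 4 higher and 1 lower without vehicle replicate 2, and 0 higher and 1 lower without either DOX library. By library size only, the median was -0.18 in the Rybp knockdown (2 higher and 23 lower), where the median of all genes was 0.18, and in phase disruption 3 higher and 16 lower were called. Ccnd2, the cell-cycle cyclin D2, rose in the knockout (10.9 to 21.6 CPM, log2 fold change 0.98) and fell in the Rybp knockdown (26.1 to 11.9 CPM, log2 fold change -1.13) and on RYBP induction (20.3 to 9.26 CPM, log2 fold change -1.13). Cad, of pyrimidine synthesis, rose in the Wdr5 knockdown (812 to 1546 CPM, log2 fold change 0.93). Polr1b, of RNA polymerase I (133 to 75.1 CPM, log2 fold change -0.82), and Shmt2, of mitochondrial serine metabolism (437 to 248 CPM, log2 fold change -0.81), fell in rTRS DOX.

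Germline genes that MGA and PRC1.6 silence were described from a list of 15. In phase disruption 14 higher and 0 lower were called (median 1.48), in the knockout 10 higher and 3 lower (1.54), in the Rybp knockdown 11 higher and 2 lower (0.76) and in the Wdr5 knockdown 13 higher and 1 lower (0.67). Of 14 tested, TF-AA had 10 higher and 1 lower (2.28) and RYBP induction 3 higher and 0 lower (0.37). In rTRS DOX 1 higher and 10 lower were called (-0.56). Shares of all genes called higher were 16.1%, 22.8%, 26.8%, 31.5%, 14.4% and 3.63% in the first 6 of these, and 20.4% were called lower in rTRS DOX. The count on RYBP induction was 5 higher by edgeR's exact test and 1 higher without DOX replicate 2. Examples are Taf7l, a germ-cell TFIID subunit, in the knockout (1.86 to 11.1 CPM, log2 fold change 2.57), Dazl, a germ-cell RNA-binding protein, in the Wdr5 knockdown (9.78 to 56.3 CPM, log2 fold change 2.53), and Mael, of the piRNA pathway, in TF-AA (3.70 to 28.8 CPM, log2 fold change 2.96). Going the other way were Hormad1, a meiotic chromosome axis protein, in rTRS DOX (6.89 to 2.79 CPM, log2 fold change -1.30) and Sycp3, of the synaptonemal complex, in the Rybp knockdown (7.65 to 3.97 CPM, log2 fold change -0.95). More of the list was called higher than lower both in the Wdr5 knockdown, where Mga rose, and in the knockout, where Mga fell. A link between the Mga transcript and the list was not tested.

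**Figure D5:**
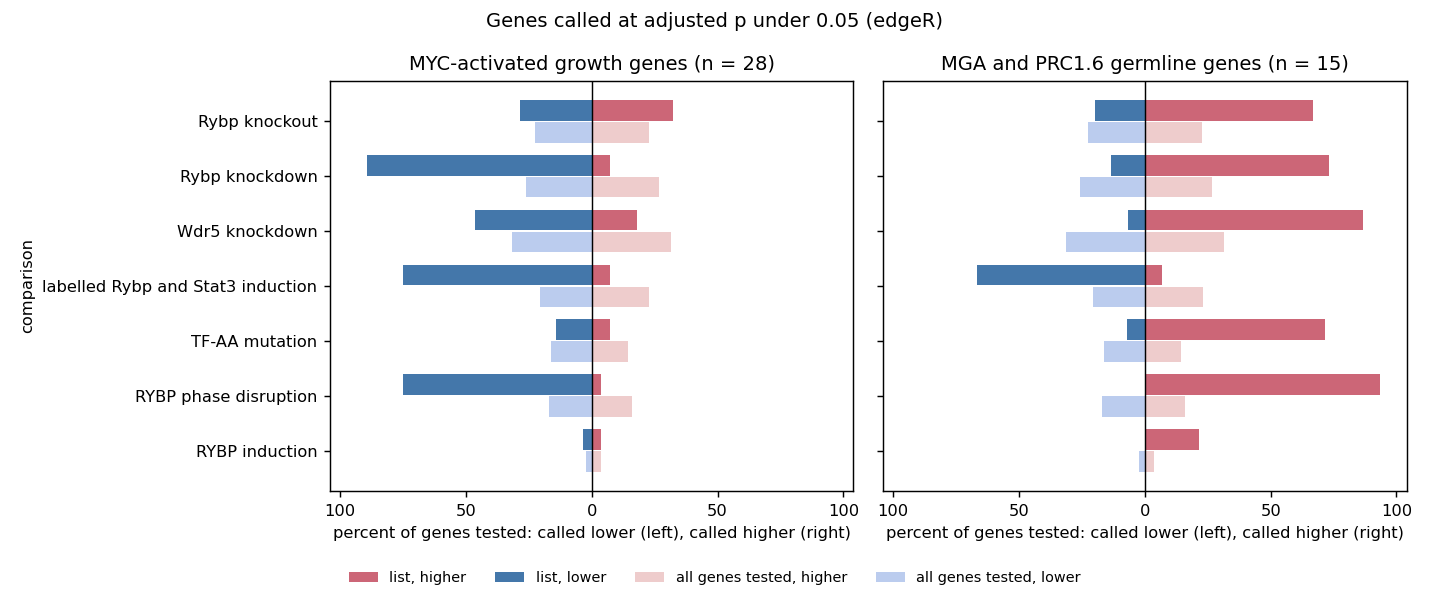
Percent of genes called lower (bars to the left) and higher (to the right) by edgeR in the 7 comparisons, for 28 MYC growth genes and 15 MGA germline genes (dark bars) and for all genes tested (pale bars). The growth list leans lower in the Rybp knockdown, rTRS DOX (labelled Rybp and Stat3 induction), phase disruption and, less far, the Wdr5 knockdown, and the germline list leans higher in all but rTRS DOX.

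Of 14 other PRC1.6 subunits, Rybp and Wdr5 among them, 4 higher and 6 lower were called in the knockout, 2 higher and 11 lower in the Rybp knockdown, 4 higher and 6 lower in the Wdr5 knockdown, 2 higher and 6 lower in rTRS DOX, 2 higher and 2 lower in TF-AA, 3 higher and 9 lower in phase disruption and 1 higher and 0 lower on RYBP induction, the last being Rybp itself. The 4 of 14 called higher in the knockout and in the Wdr5 knockdown are shares near those of all genes (22.8% and 31.5%), while the 11 and 9 called lower in the Rybp knockdown and phase disruption stand beside 26.0% and 17.0%. The lower counts hold the depleted gene itself, Rybp in the knockout and the Rybp knockdown and Wdr5 in its own knockdown. In phase disruption they hold total Rybp, which includes the overexpressed form. These calls reflect the manipulation. By library size only, 2 higher and 7 lower were called in the Rybp knockdown. With the replicate number as a block, 3 higher and 11 lower were called in rTRS DOX (27.4% and 25.1% of all genes). In TF-AA the block called 2 higher and 4 lower (18.2% and 20.0%). Without 1 library the counts were 2 higher and 6 lower in the knockout (Rybp-/- replicate 2), 1 higher and 1 lower (TF-AA replicate 2), 2 higher and 1 lower (TF-AA replicate 1) or 2 higher and 4 lower (WT ESC replicate 1) in TF-AA, and 2 higher and 4 lower (vehicle replicate 1) or 2 higher and 1 lower (vehicle replicate 2) on RYBP induction. In phase disruption only 1 was called higher under DESeq2, without the filter and without either WT.RYBP library or mutant replicate 1. E2f6, a DNA-binding repressor of the complex, rose in the knockout (24.0 to 37.4 CPM, log2 fold change 0.64), the Rybp knockdown (38.9 to 64.7 CPM, log2 fold change 0.73) and TF-AA (22.5 to 49.1 CPM, log2 fold change 1.12). Of 18 MYC cofactor and turnover genes, 2 higher and 6 lower, 5 higher and 8 lower, 12 higher and 5 lower, 3 higher and 5 lower, 1 higher and 5 lower, 1 higher and 5 lower and 1 higher and 0 lower were called in the same order. Shares of all genes called higher and lower were, in that order, 22.8% and 22.7%, 26.8% and 26.0%, 31.5% and 31.5%, 23.0% and 20.4%, 14.4% and 16.1%, 16.1% and 17.0%, and 3.63% and 2.39%. By library size only, the cofactor calls were 6 higher and 5 lower in the Rybp knockdown, 2 higher and 2 lower in TF-AA, and on RYBP induction 0 higher and 1 lower. They were 1 higher and 7 lower in the Rybp knockdown without shRybp replicate 2, 3 higher and 7 lower without shRybp replicate 1, and 0 higher and 1 lower in TF-AA without either TF-AA library. On RYBP induction they ran from 0 without either DOX library to 3 higher and 1 lower without vehicle replicate 2. Usp28, a deubiquitinase that stabilizes MYC, fell in the knockout (336 to 166 CPM, log2 fold change -1.02), the Rybp knockdown (82.5 to 47.4 CPM, log2 fold change -0.80), TF-AA (143 to 93.4 CPM, log2 fold change -0.62) and phase disruption (162 to 108 CPM, log2 fold change -0.59). The other network genes were Mxd1, Mxd4, Mlxip and Mlxipl, with 2 higher and 1 lower, 2 higher and 1 lower, 3 higher and 1 lower, 2 higher and 0 lower, 0 higher and 1 lower, 2 higher and 1 lower and 0 higher and 0 lower, too few to be read against the shares of all genes. Mlxipl, the glucose-sensing partner of MLX, rose in the knockout (2.31 to 4.78 CPM, log2 fold change 1.05) and the Rybp knockdown (10.7 to 23.5 CPM, log2 fold change 1.14), and Mxd4, an MXD repressor, in the Wdr5 knockdown (8.11 to 24.5 CPM, 3.02-fold).

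Over 13125 genes tested in all 7 comparisons, those closest to Myc by the root mean square difference of the 7 log2 fold changes were 8430410A17Rik (0.318), Slc7a3 (0.323) and Lrmp (0.333). Closest to Mycn were Prelid2 (0.159), Pnldc1 (0.163) and B230307C23Rik (0.173), and closest to Mycl were Nt5c (0.142), Trafd1 (0.150) and Plxnb1 (0.164). The difference is not scaled to the size of the changes, so values for different members are not compared.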

How the data were processed

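RNA-seq and ChIP-seq of mouse ESCs were analysed from the processed files. The authors trimmed reads with Trim Galore, aligned them to mm9 with STAR and counted them per gene with HTSeq, and the deposited values are raw counts. ChIP reads were aligned with Bowtie2 and peaks called with MACS2, with replicates merged where there were 2. The STAT3 lists of Rybp+/+ and Rybp-/- and the RING1B lists of shEV and shStat3 are of 1 library each. The deposited peak lists give fold enrichment over background and −log10 q-values. Strand of counting is not given in the sources used here. Rows that name no gene were left out: 4.69% to 9.65% of reads without a feature and 2.81% to 3.45% ambiguous, in the 6 tables that list them. Gene length was used only for RPKM.

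Each table was fitted alone with edgeR 4.0.16 in R 4.3.3 (filterByExpr, TMM factors, quasi-likelihood test, Benjamini-Hochberg adjustment over all genes tested, threshold 0.05). CPM and RPKM use TMM-scaled library sizes. Scripts were tested on simulated data. Promoters were windows of 2500 bp around mm9 start sites, and a peak counted with any overlap. Replicate pairs within each group were checked for a library deposited more than once, and none agreed within sampling noise. The 26 libraries filled 28 places in the comparisons, because the shEV libraries served as control in both knockdown comparisons. The alternatives were DESeq2 1.42.0, edgeR's exact test, RLE factors, library size only, no low-count filter, a replicate block, leaving out each library, and other peak windows and thresholds.

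The members and all gene lists were chosen with earlier results of these data known. All 9 members were named in all tables. From each list, at most the 2 called genes with the largest absolute log2 fold change in each direction per comparison could be named, with Rybp, Wdr5 and Stat3 as checks and the 3 genes most like Myc, Mycn and Mycl. Control columns headed WT in the phase and TF-AA tables were taken as WT.RYBP and WT ESC, NTC in the RYBP induction table as vehicle, and S5-DOX in the rTRS table as the second rTRS DOX library.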

Additional observations from a re-analysis of the deposited data

Results flagged for a closer look

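Myc, Mycl and Mnt lay on opposite sides of their controls in the Rybp knockout and the Rybp knockdown, with both depleted libraries beyond both controls in each. Myc had a log2 fold change of 0.27 in the knockout (R7.15 ESCs) and -0.79 in the knockdown (R1 ESCs). Mycl had -0.14 and 0.21, neither past the threshold, and Mnt 0.11 and -0.55. The difference was not tested. Line, depletion method and control differ between these comparisons and cannot be told apart. Rybp fell in both, by 2.15 and 1.25 on the log2 scale.

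STAT3 promoter peaks in Tet.Rybp.Stat3 cells were listed at 9 of 9 members with doxycycline and at 1, Mnt, without it. The lists themselves differed in size, with 30663 peaks against 2816, and 56.9% against 8.85% of protein-coding genes held such a peak.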

How the results depend on the processing

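Over 630 alternative values of the members, 569 kept their direction and side of the threshold, 33 lost the call, 17 gained it and 11 changed sign, none of these 11 called in either analysis. The cause was not tested. Signs turned at Mlx in the knockout without Rybp-/- replicate 2 (-0.019, to 0.067 over the libraries left out), Mycn in the Rybp knockdown by library size only (0.084), Mlx in the Wdr5 knockdown without shEV replicate 1 (0.012, down to -0.18), and Mnt in rTRS without NTC replicate 2 (-0.080) or DOX replicate 1 (-0.073, up to 0.19). They also turned at Mxd3 in TF-AA without WT ESC replicate 1 (0.082, down to -0.27) and in phase disruption without WT.RYBP replicate 2 (-0.00081) or mutant replicate 1 (-0.12, up to 0.14). On RYBP induction they turned at Max by library size only (-0.0031) or without vehicle replicate 2 (-0.026, up to 0.058), and at Mlx without DOX replicate 1 (-0.011, up to 0.27). Besides the members, Wdr5 turned on RYBP induction without vehicle replicate 2 (0.011) or DOX replicate 2 (0.0049, down to -0.034).

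DESeq2 called 2980 genes in phase disruption, against 4814. Leaving out one library in turn, genes called ran from 6081 to 7197 in the knockout, 6941 to 8463 in the Rybp knockdown, 8272 to 9020 in the Wdr5 knockdown, 6036 to 6587 in rTRS, 2724 to 4767 in TF-AA, 3400 to 4063 in phase disruption and 406 to 1566 on RYBP induction. Members called ran, in that order, from 5 to 7, 6 to 7, 5 to 7, 6 to 7, 1 to 4, 4 to 5 and 2 to 5. Counts moved by over 1.5 times without either TF-AA library (2724 and 2733 genes, against 4412) and on RYBP induction without either vehicle (1566 and 1467) or either DOX library (406 and 409, against 899). Library size only moved the median of all genes in the Rybp knockdown from 0.018 to 0.18 and the share of calls that were higher from 50.8% to 71.2%, and in phase disruption that share from 48.7% to 61.7%.

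No label says that a replicate number marks a shared culture, batch or day, so the replicate block was kept as an alternative. Deviations of same-numbered libraries correlated across genes at 0.15 in rTRS and 0.11 in TF-AA, and at -0.00076 to 0.033 in the other 5 comparisons. With the replicate block, 8559 genes were called in rTRS, against 7070, 5525 in TF-AA, against 4412, and 1211 on RYBP induction, against 899, while 5 members were called in TF-AA and 6 on RYBP induction, against 3 in each without it. In rTRS the block gave 3 higher and 11 lower PRC1.6 subunits (2 and 6 without it) and 5 higher and 8 lower MYC cofactors (3 and 5), in TF-AA 2 higher and 4 lower PRC1.6 subunits (2 and 2), and on RYBP induction 5 higher germline genes (3). With the block, 27.4% of all genes were called higher and 25.1% lower in rTRS, and 18.2% and 20.0% in TF-AA. On RYBP induction the block called 4.79% of all genes higher and 3.32% lower. At a −log10 q of at least 10, members with a STAT3 promoter peak numbered 1 in Rybp+/+, 1 in Rybp-/- and 0 in Tet.Rybp.Stat3 without doxycycline (0.398%, 0.299% and 0.371% of genes), and with a RING1B peak 3 in shEV, 4 in shStat3 and 5 in Tet.Rybp.Stat3 with doxycycline (19.4%, 20.0% and 22.9%).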
